A study of Mus musculus with 6 samples.

Results

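The genes described here are the metallothioneins Mt1 and Mt2, the zinc-sensing transcription factor gene Mtf1 and 7 zinc transporter genes, in mouse muscle cells given recombinant human MG53 (rhMG53). They were taken by symbol from a table of counts per gene and are 10 of its 27179 genes: Mt1, Mt2, Mtf1, Slc30a1, Slc30a5, Slc30a7, Slc39a1, Slc39a7, Slc39a10 and Slc39a14. They were chosen by function and by their library-size-scaled counts in rhMG53 against BSA libraries, the same contrast that is described below, so their differences between the groups are given as a description, and no p-value is used to support them. The study sequenced RNA from primary satellite cells, which are the muscle stem cells, isolated from hindlimbs of wild-type C57BL/6 mice. The labels call the cells ageing and give no age. The first group had received rhMG53 for 72 h (3 libraries) and the other bovine serum albumin (BSA), the vehicle, for the same time (3 libraries), and both groups were grown in medium with fetal bovine serum and basic fibroblast growth factor. MG53 belongs to the TRIM proteins, is made by striated muscle and is known for its part in plasma membrane repair.

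Metallothioneins are small proteins, rich in cysteine, that bind zinc and copper, and also the toxic metal cadmium. MTF1 binds metal response elements, short sequences in the promoters of Mt1, Mt2 and Slc30a1, when zinc in the cell is high, and raises transcription from them. In the mouse it is also known to hold down Slc39a10. Transporters of the SLC30 family move zinc out of the cytosol, into organelles or out of the cell, and those of the SLC39 family move zinc into the cytosol. Metallothionein genes are also known to respond to glucocorticoids, to interleukin 6 and to oxidative stress.

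Promoter sequences of Mt1, Mt2 and Slc30a1 are shown because these 3 genes are the textbook targets of MTF1 among the 10. Each runs 5′ to 3′ on the plus strand, from 250 bases before a RefSeq transcript start to 50 bases after it, in the GRCm38.p6 assembly. For Mt1 and Slc30a1 that start lies downstream of the start of the RefSeq gene span. Mt1 is at chr8:94178839-94179138, Mt2 at chr8:94172368-94172667 and Slc30a1 at chr1:191906531-191906830. Capitals mark the core of the metal response element, searched as TGCACNC and TGCGCNC on both strands.
Mt1: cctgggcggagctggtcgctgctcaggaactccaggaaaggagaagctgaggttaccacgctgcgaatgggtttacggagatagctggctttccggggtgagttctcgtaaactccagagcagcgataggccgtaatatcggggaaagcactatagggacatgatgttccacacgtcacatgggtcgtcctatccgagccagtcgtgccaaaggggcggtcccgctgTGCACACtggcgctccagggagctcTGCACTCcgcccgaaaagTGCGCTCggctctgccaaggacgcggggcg
Mt2: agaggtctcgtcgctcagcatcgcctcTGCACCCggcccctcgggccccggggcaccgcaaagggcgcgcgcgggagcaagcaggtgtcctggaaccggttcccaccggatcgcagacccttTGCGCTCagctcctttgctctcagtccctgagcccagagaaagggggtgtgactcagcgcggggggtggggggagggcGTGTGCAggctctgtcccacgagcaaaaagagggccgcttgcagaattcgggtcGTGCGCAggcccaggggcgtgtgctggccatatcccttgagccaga
Slc30a1: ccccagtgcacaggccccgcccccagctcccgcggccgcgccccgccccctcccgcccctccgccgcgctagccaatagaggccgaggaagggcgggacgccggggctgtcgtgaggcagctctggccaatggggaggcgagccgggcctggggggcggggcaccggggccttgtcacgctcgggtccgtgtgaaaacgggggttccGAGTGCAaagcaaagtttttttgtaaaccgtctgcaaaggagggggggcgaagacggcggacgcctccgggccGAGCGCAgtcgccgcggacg

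The Mt2 window held 4 metal response element cores, the Mt1 window 3 and the Slc30a1 window 2, none overlapping another. Of 32851 RefSeq promoters of the same length, 0.517% held at least 4 such cores, 1.97% at least 3, 7.11% at least 2 and 25.7% at least 1. Promoters were given for 9 of the 10 genes, and Slc30a5 held 1 core, while those of Mtf1, Slc30a7, Slc39a1, Slc39a7 and both promoters of Slc39a10 held none. The core of the antioxidant response element, searched as TGACNNNGC on both strands, is held by 12.4% of all promoters. It occurred once each in the windows of Mt2 (79 bases before the start, overlapping no metal response element core), Slc30a1, Slc30a5 and Slc39a1. In Mt1, a core lies 23 bases before the RefSeq transcript start used and the others begin 3 and 21 bases after it. The RefSeq gene span of Mt1 begins at 94178883, within the window and upstream of all 3 cores. GENCODE gives Mt1 transcripts that start at 94179082, 94179211 and 94179241, and the latest of these starts lie past the end of the window. The Mt1 window held no antioxidant response element core, but it ends at 94179138. Bases from there to the starts at 94179211 and 94179241 were not searched for either core. The Mt1 counts thus leave out sequence just before those starts. A match of letters is a description of the sequence and does not show that a factor was bound.

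The 6 libraries held 17374151 to 22738745 counts each, and 13769 genes were tested. Muscle genes were present at high levels in both groups, with the embryonic myosin gene Myh3 at a mean of 21426 CPM (counts scaled by library size), the myogenic factor gene Myog at 909.9 CPM and the satellite cell gene Pax7 at 9.23 CPM, so the cultures held differentiated muscle cells beside any stem cells. The 6 macrophage and leukocyte markers together took 6.39 to 10.2 CPM in rhMG53 libraries and 5.92 to 7.39 CPM in BSA libraries, and the endothelial, adipocyte and liver marker lists reached at most 1.32 CPM in any library. In bulk RNA, fewer cells of a type and less RNA per cell cannot be told apart. The replicates are described as biological, but the labels do not tie them to separate animals or cultures, so SDs and p-values measure only the spread between these libraries, which may be technical.

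Both metallothionein genes were higher in the rhMG53 libraries, and the groups did not overlap. Mt1 had 52.7, 65.7 and 57.1 CPM in rhMG53 replicates 1 to 3, against 32.8, 30.4 and 33.6 CPM in BSA replicates 1 to 3 (library sizes scaled by the trimmed mean of M-values, TMM). The lowest rhMG53 library thus stood above the highest BSA library by more than the range within the BSA group. Mt2 had 37.5, 43.9 and 37.0 CPM in rhMG53 replicates 1 to 3, against 20.9, 19.3 and 22.1 CPM in BSA replicates 1 to 3. For both genes the highest library was rhMG53 replicate 2 and the lowest was BSA replicate 2. Mt1 averaged 58.5 ± 6.61 CPM with rhMG53 and 32.3 ± 1.64 CPM with BSA (SD, n = 3 each), which is 1.81-fold (log2 fold change 0.86, 95% interval 0.67 to 1.05). Mt2 averaged 39.5 ± 3.87 CPM with rhMG53 and 20.7 ± 1.42 CPM with BSA (SD, n = 3 each), which is 1.90-fold (log2 fold change 0.93, 95% interval 0.73 to 1.12). These values rest on 986 to 1206 counts of Mt1 and 639 to 807 of Mt2 per rhMG53 library, against 539 to 743 and 341 to 473 per BSA library.

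**Figure D1:**
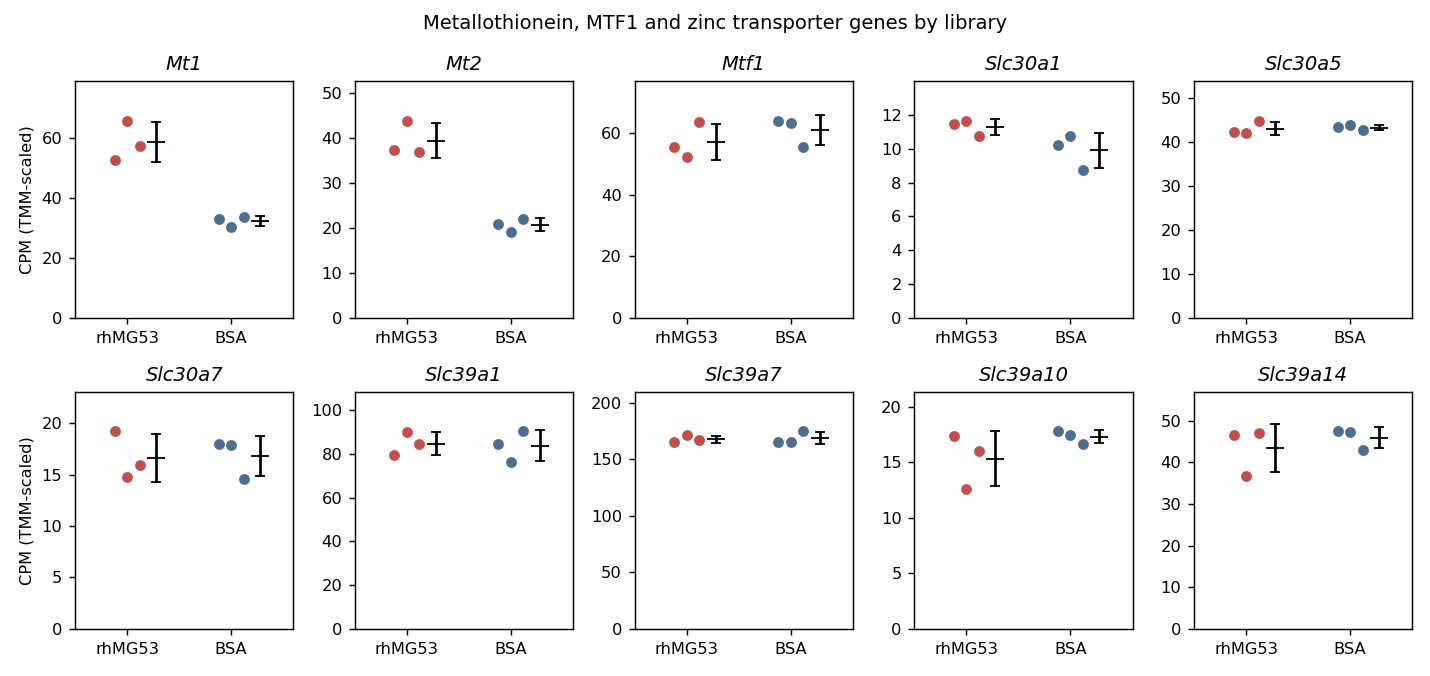
CPM (vertical axes, from 0, TMM-scaled) of the 10 genes in the 3 rhMG53 libraries (red) and the 3 BSA libraries (blue), with the mean and SD of each group beside the points in black. Mt1 and Mt2 do not overlap between the groups, while the other 8 genes do.

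The paired metallothionein genes kept nearly the same proportion to each other in every library. The count of Mt1 over that of Mt2 was 1.41, 1.49 and 1.54 in rhMG53 replicates 1 to 3, against 1.57, 1.58 and 1.52 in BSA replicates 1 to 3, and the groups overlapped. Summed, Mt1 and Mt2 took 90.2, 109.6 and 94.1 CPM in rhMG53 replicates 1 to 3, against 53.7, 49.7 and 55.7 CPM in BSA replicates 1 to 3. Mt1 and Mt2 have no run of 50 bases in common in their annotated GENCODE transcripts, so exact reads of that length or longer could not be exchanged between them. Of the 50-base runs of Mt2, 45.8% also occur in 1 other GENCODE gene, Gm45774, and how reads shared by several genes were counted is not given in the sources used here.

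Markers of other cell types were set beside the metallothionein levels, and some matched them only in part. The 6 fibroblast and fibro-adipogenic markers summed to 729.8 to 815.0 CPM in rhMG53 libraries and 614.0 to 789.8 CPM in BSA libraries, so the groups overlapped. That sum was lowest in BSA replicate 2, which also had the lowest Mt1 and Mt2. Among the rhMG53 libraries, though, the sum was lowest in replicate 2 (729.8 CPM), which had the highest Mt1 and Mt2. The 4 endothelial markers summed to 0.958 to 1.32 CPM with rhMG53 and 0.615 to 0.880 CPM with BSA, so the groups did not overlap. None of the endothelial markers had more than 10 counts in any library. The leukocyte sum was highest in rhMG53 replicate 2, where the lysozyme gene Lyz2 had 73 counts, against 10 to 17 in the other 5 libraries. The macrophage gene Cd68 was also highest there, at 25 counts against 4 to 22. Itgam, with 80 counts there against 76 to 116, was not. The pan-leukocyte gene Ptprc had at most 2 counts in any library, too few to compare. The part of these cell types in the metallothionein difference was not tested. Without rhMG53 replicate 2 the log2 fold changes were 0.76 for Mt1 and 0.84 for Mt2.

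Of the 10 genes, 2 passed an adjusted p of 0.05 in edgeR's quasi-likelihood fit over all tested genes, Mt1 and Mt2, where 0.0218% of all tested genes passed. Groups did not overlap, with rhMG53 above, for the same 2 genes, against 5.95% of all tested genes, and for no gene with rhMG53 below, against 4.83%. The third gene that passed was Hmox1, which encodes the inducible heme oxygenase and is known to respond to oxidative stress. It had 137.2, 142.8 and 130.4 CPM in rhMG53 replicates 1 to 3, against 101.7, 95.4 and 94.7 CPM in BSA replicates 1 to 3 (log2 fold change 0.49, SE 0.0612, adjusted p = 0.0313 in edgeR). Hmox1 was named after its values were seen, and its call was lost in each of the 6 fits that drop a library. Because this contrast chose the 10 genes, nothing is read from these counts. With BSA replicate 2 left out, none of the 10 passed, and the log2 fold changes were 0.82 for Mt1 and 0.88 for Mt2.

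The metallothionein genes lie side by side on chromosome 8 of mm10, Mt2 at 94172618 to 94173567 and Mt1 at 94178883 to 94180327, with 5315 bases between their RefSeq spans. Within 100 kb on either side the count table held 4 other genes of the RefSeq table, of which 3 had enough counts to test, and 0 passed in edgeR. The brain-type metallothionein gene Mt3, in the same cluster, was low, at 1.96 ± 0.473 CPM with rhMG53 and 1.80 ± 0.217 CPM with BSA (SD, n = 3 each; log2 fold change 0.14, SE 0.232, adjusted p = 0.991 in edgeR). The epithelial metallothionein gene Mt4 had 1 count in rhMG53 replicate 1 and 0 in the other libraries. Nup93, a nuclear pore gene next to the cluster, differed by -0.14 on the log2 scale, rhMG53 minus BSA (SE 0.0575; adjusted p = 0.946), with 57.3 ± 1.14 CPM in rhMG53 and 63.3 ± 0.952 CPM in BSA libraries. Bbs2, a ciliary transport gene, differed by -0.21 on that scale (SE 0.117; adjusted p = 0.965).

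Mtf1, the gene of the zinc sensor itself (chromosome 4, 124802549 to 124849800), overlapped between the groups, with a lower mean in the rhMG53 libraries. It had 55.5, 52.3 and 63.5 CPM in rhMG53 replicates 1 to 3, against 64.0, 63.3 and 55.4 CPM in BSA replicates 1 to 3. The log2 fold change was -0.09 (95% interval -0.28 to 0.09), a range that holds changes between 0.822-fold and 1.07-fold. MTF1 is controlled largely as a protein, by zinc binding and entry into the nucleus, which counts of its transcript do not measure. The Mtf1 span overlaps that of 1110065P20Rik in the RefSeq table, and since the strand setting of the counting is not given, reads of an overlapping gene cannot be separated with certainty.

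Among the SLC30 genes, which carry zinc out of the cytosol, Slc30a1 had the largest difference. Slc30a1, the exporter at the plasma membrane (chromosome 1, 191906697 to 191913248), had 11.5, 11.7 and 10.7 CPM in rhMG53 replicates 1 to 3, against 10.2, 10.7 and 8.74 CPM in BSA replicates 1 to 3. The lowest rhMG53 library and the highest BSA library were level, at 10.72 and 10.73 CPM, so the groups overlapped by this margin alone. Its log2 fold change was 0.19 (95% interval -0.05 to 0.43), from 159 to 231 counts per library, the fewest of the 10 genes. Its span overlaps that of the long noncoding RNA gene 1700034H15Rik, which had 17 counts over all 6 libraries. Slc30a5 (chromosome 13, 100802645 to 100833480) and Slc30a7 (chromosome 3, 115938973 to 116007414), which load zinc into the early secretory pathway, had log2 fold changes near 0.

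Slc30a5 had 42.3, 42.1 and 44.9 CPM in rhMG53 replicates 1 to 3, against 43.5, 43.9 and 42.7 CPM in BSA replicates 1 to 3 (log2 fold change -0.01, 95% interval -0.14 to 0.13, the sign turning with library size scaling). Slc30a7 had 19.2, 14.8 and 15.9 CPM in rhMG53 replicates 1 to 3, against 18.0, 17.8 and 14.6 CPM in BSA replicates 1 to 3 (log2 fold change -0.01, 95% interval -0.28 to 0.25). The Slc30a7 values spread more within each group than between the group means. The 3 exporter genes together took 71.0 ± 2.27 CPM in rhMG53 libraries and 70.1 ± 3.49 CPM in BSA libraries (SD, n = 3 each).

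The SLC39 genes, which bring zinc into the cytosol, included the most abundant transporter. Slc39a7, which releases zinc from the endoplasmic reticulum and Golgi (chromosome 17, 34028266 to 34031690), had 165.0, 171.1 and 167.5 CPM in rhMG53 replicates 1 to 3, against 165.3, 165.5 and 174.8 CPM in BSA replicates 1 to 3. Its groups overlapped and its log2 fold change was -0.01 (95% interval -0.13 to 0.12), a sign that turned with library size scaling (0.01). Of its 50-base runs, 74.5% also occur in another GENCODE gene, Gm20427, so its counts depend on how shared reads were treated. Slc39a1, an importer at the plasma membrane (chromosome 3, 90248190 to 90253613), had 79.4, 90.2 and 84.4 CPM in rhMG53 replicates 1 to 3, against 84.4, 76.3 and 90.3 CPM in BSA replicates 1 to 3 (log2 fold change 0.02, 95% interval -0.15 to 0.18). Of the 50-base runs of Slc39a1, 21.8% are shared with its pseudogene Slc39a1-ps.

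Slc39a10 and Slc39a14, both importers of the plasma membrane, had their lowest values in the same library. Slc39a10 (chromosome 1, 46807544 to 46925776) had 17.4, 12.6 and 16.0 CPM in rhMG53 replicates 1 to 3, against 17.8, 17.4 and 16.6 CPM in BSA replicates 1 to 3. Its log2 fold change was -0.17 (95% interval -0.42 to 0.08). Slc39a14, which also carries iron and manganese (chromosome 14, 70303467 to 70351452), had 46.5, 36.8 and 47.0 CPM in rhMG53 replicates 1 to 3, against 47.4, 47.1 and 42.9 CPM in BSA replicates 1 to 3. Its log2 fold change was -0.08 (95% interval -0.29 to 0.13). Both genes were lowest in rhMG53 replicate 2, the library in which Mt1 and Mt2 were highest. Without that library the log2 fold changes were -0.05 for Slc39a10 and 0.03 for Slc39a14. Some genes of the other lists described below also had extremes in it. The copper handling genes Cox17 (38.6 CPM) and Sod1 (104.5 CPM) were highest there. Nr3c1 (38.8 CPM), of the glucocorticoid list, and Osmr (6.098 CPM), of the STAT3 list, were lowest there. Cox17, Sod1, Nr3c1 and Osmr were named after their values were seen. How many of all tested genes had an extreme in this library was not counted. Whether a shift of the whole library affected Mt1, Mt2, Slc39a10 and Slc39a14 was not tested. The 4 importer genes together took 311.3 ± 3.36 CPM in rhMG53 libraries and 315.4 ± 9.13 CPM in BSA libraries (SD, n = 3 each).

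**Figure D2:**
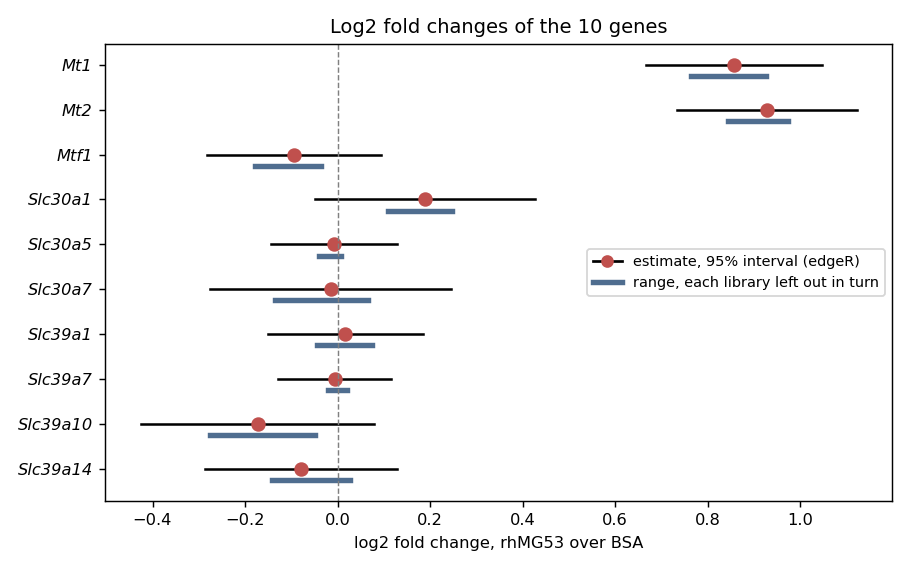
Log2 fold change of rhMG53 over BSA (horizontal axis) for the 10 genes, as red points with 95% intervals from edgeR in black, and the range of the estimate when each of the 6 libraries was left out in turn in blue. The interval is 0.67 to 1.05 for Mt1 and 0.73 to 1.12 for Mt2, and those of the other 8 genes include 0.

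Over the 10 genes, 4 had positive and 6 had negative log2 fold changes, with a median of -0.01, against 0.00 over all tested genes. Among the 7 transporters, 5 were negative, and the median was -0.01.

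By length of the principal GENCODE transcript, the gene with the highest level per kilobase was Mt1 in rhMG53 libraries and Slc39a7 in BSA libraries. Levels here are CPM divided by that length. In rhMG53 libraries Mt1 came first (95.9 to 120 CPM per kilobase), followed by Mt2 (72.4 to 86.0) and Slc39a7 (71.1 to 73.7), whose ranges overlapped, and then Slc39a1 (33.6 to 38.2). In BSA libraries Slc39a7 came first (71.3 to 75.3), followed by Mt1 (55.4 to 61.2), Mt2 (37.7 to 43.2) and Slc39a1 (32.3 to 38.2), the last of which overlapped Mt2. The rest kept 1 order of group means in both groups, which ran from Slc30a5 (13.3 to 14.1 over all 6 libraries) through Slc39a14 (7.46 to 9.63), Mtf1 (6.86 to 8.39), Slc39a10 (2.29 to 3.24) and Slc30a1 (1.67 to 2.22) to Slc30a7 (1.62 to 2.13). Slc39a14 and Mtf1 overlapped over all libraries, as did Slc30a1 and Slc30a7. The order at the top depends on the length used. By the merged length of all basic exons, which takes in the Mt1 introns retained in some transcripts, Slc39a7 came first in both groups, at 71.1 CPM per kilobase with rhMG53 and 71.4 with BSA. By that length Mt1 stood at 46.9 CPM per kilobase with rhMG53 and 25.9 with BSA, below Mt2 at 67.1 with rhMG53 and 35.3 with BSA.

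**Figure D3:**
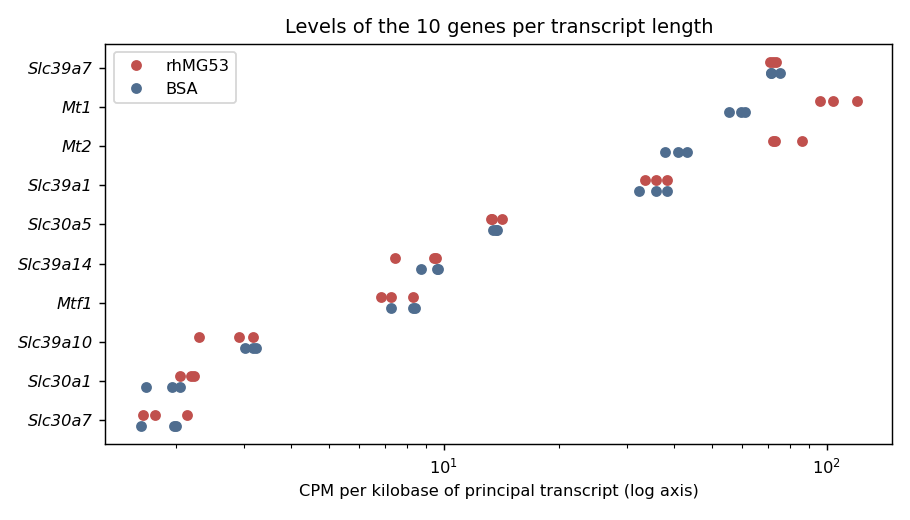
CPM per kilobase of the principal transcript (horizontal log axis) for the 10 genes, with each of the 3 rhMG53 libraries as a red point and each of the 3 BSA libraries as a blue point below it. By this length Mt1 is first with rhMG53 (95.9 to 120) and Slc39a7 is first with BSA (71.3 to 75.3).

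Other genes of zinc handling were counted from a list of the remaining SLC30 and SLC39 genes, Tmem163, Mt3 and Mt4. Of the 20 genes, 12 had enough counts to test and 0 passed in edgeR in either direction, where 0.0218% of all tested genes passed with rhMG53 higher and 0 with rhMG53 lower. Of the 12, 7 had positive and 5 negative log2 fold changes, with a median of 0.04, against 0.00 for all tested genes, and 1 had an unadjusted p under 0.05, as 5.2% of all tested genes did. That gene was Slc30a4, which carries zinc into vesicles, at 121.0 ± 8.09 CPM with rhMG53 and 135.5 ± 8.58 CPM with BSA (SD, n = 3 each; log2 fold change -0.16, SE 0.0704, adjusted p = 0.950 in edgeR). Slc30a6, which pairs with Slc30a5 in the secretory pathway, differed by 0.14 on the log2 scale (SE 0.0982; adjusted p = 0.973). Slc30a8, the insulin granule transporter, had 0 counts in every library.

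Genes reported as targets of MTF1 in the mouse, other than those above, were Gclc, Selenow, Ndrg1, Csrp1 and Pgf. All 5 were tested, 0 passed in edgeR (0.0218% of all tested genes passed), 3 were positive and 2 negative, and the median log2 fold change was 0.01. Ndrg1, a stress-responsive gene, had 9.44 ± 1.03 CPM with rhMG53 and 7.76 ± 0.380 CPM with BSA (SD, n = 3 each; log2 fold change 0.29, SE 0.117, adjusted p = 0.946 in edgeR). Gclc, which encodes the catalytic part of the enzyme that limits glutathione synthesis, differed by 0.05 on that scale (SE 0.0712; adjusted p = 0.988). Of the 5 only Ndrg1 had an unadjusted p under 0.05, which 5.2% of all tested genes had.

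Genes of copper, the other metal that metallothioneins bind in cells, were also counted. Of 14 copper handling genes 12 were tested and 0 passed in edgeR, where 0.0218% of all tested genes passed. There were 8 positive and 4 negative log2 fold changes, with a median of 0.00. At an unadjusted p under 0.05 there were 0 genes, where 5.2% of all tested genes had such a p. The 2 with the smallest p were Steap3, a metalloreductase gene, at 25.2 ± 1.26 CPM with rhMG53 and 22.6 ± 0.993 CPM with BSA (SD, n = 3 each; log2 fold change 0.16, SE 0.0753, adjusted p = 0.958 in edgeR) and Cox11, a copper chaperone gene for cytochrome oxidase (log2 fold change 0.18, SE 0.136, adjusted p = 0.974). The copper importer gene Slc31a1 had a log2 fold change of 0.01 (SE 0.0616). It was named after its values were seen.

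The glucocorticoid and STAT3 response lists, which stand for other known inducers of metallothionein genes, held 0 genes that passed in edgeR, where 0.0218% of all tested genes passed, and 5.2% of all had an unadjusted p under 0.05. Of 12 glucocorticoid response genes 11 were tested, with 7 positive, 4 negative and a median log2 fold change of 0.05. Cebpd, a transcription factor gene, had 10.5 ± 1.94 CPM with rhMG53 and 7.03 ± 1.06 CPM with BSA (SD, n = 3 each; log2 fold change 0.58, SE 0.155, adjusted p = 0.935 in edgeR). The clock gene Per1, which glucocorticoids raise, had 25.6 ± 1.31 CPM with rhMG53 and 29.5 ± 2.30 CPM with BSA (log2 fold change -0.20, SE 0.0799, adjusted p = 0.946). Cebpd and Per1 were the 2 genes of the list with an unadjusted p under 0.05, and their signs were opposite. Of 13 STAT3 response genes 12 were tested, with 9 positive, 3 negative, a median of 0.04 and 0 at an unadjusted p under 0.05. The interleukin 6 receptor gene Il6ra differed by 0.47 on the log2 scale (SE 0.223; adjusted p = 0.950) at 1.61 ± 0.0373 CPM with rhMG53 and 1.15 ± 0.149 CPM with BSA. The transcription factor gene Cebpb differed by 0.41 on that scale (SE 0.195; adjusted p = 0.958).

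**Figure D4:**
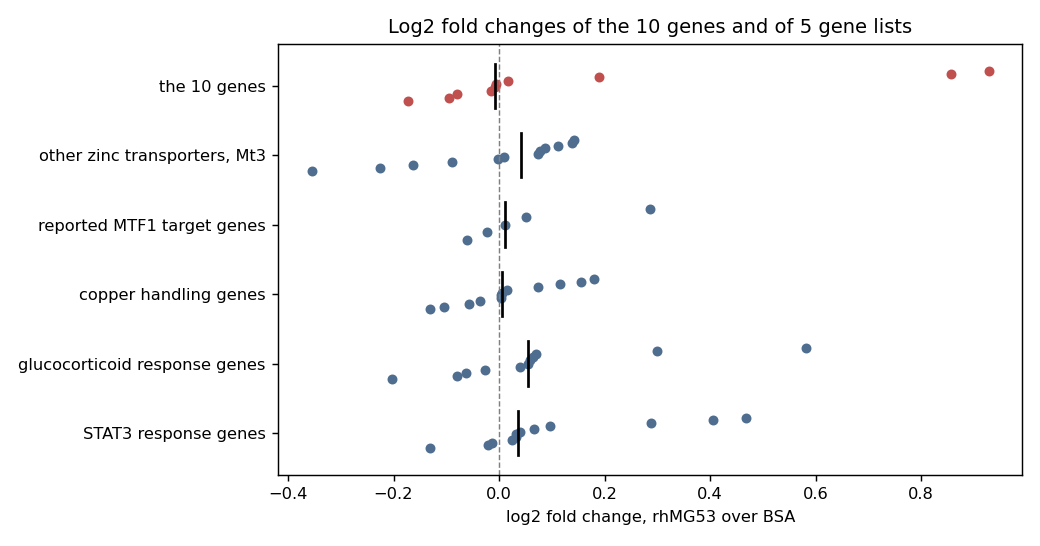
Log2 fold change of rhMG53 over BSA (horizontal axis) of each tested gene, as points, with the median of each row as a black bar, for the 10 genes (red) and for 5 lists of related genes (blue). Mt1 and Mt2, at 0.86 and 0.93, lie to the right of every gene in the 5 lists, where the highest is Cebpd at 0.58.

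The 5 genes whose profile over the 6 libraries was most like the mean of Mt1 and Mt2 were sought among 10113 named genes with at least 5 CPM. Likeness was the root mean square difference of log2 CPM after centring each gene on its mean, which was 0.46 for the median gene. The closest was the chemokine gene Cxcl1 (0.19), at 23.1, 22.4 and 20.6 CPM in rhMG53 replicates 1 to 3, against 15.4, 14.3 and 13.1 CPM in BSA replicates 1 to 3. It was followed by Cebpd (0.19), the protein C receptor gene Procr (0.20), the ubiquitin-conjugating enzyme gene Ube2s (0.20) and the histone gene H2aj (0.21). All 5 were higher in every rhMG53 library than in any BSA library, as the choice by likeness favours, and their log2 fold changes of 0.57 to 0.80 were below those of Mt1 and Mt2. None of the 5 passed in edgeR, with adjusted p at 0.0881 for Cxcl1 and 0.935 for the other 4, although Cxcl1 passed with DESeq2, with robust moderation in edgeR and with no filter on low counts.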

How the data were processed

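The authors deposited raw counts (whole reads per NCBI gene ID) for 3 rhMG53 and 3 BSA libraries. STAR, featureCounts and edgeR are named with the mm10 build, per the submitters' processing notes. The annotation, strand setting and handling of multi-mapping reads were not given in the sources used here. Per the labels' protocols, libraries came from a directional kit after poly(A) selection.

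Symbols and coordinates (1-based) came from the RefSeq table of GRCm38.p6, which named 25275 of 27179 IDs, and lengths from GENCODE vM21. Genes were kept with filterByExpr (minimum count 10, minimum total 15), scaled with TMM factors and fitted with edgeR 4.0.16 in R 4.3.3 (quasi-likelihood, treatment only, 2-sided, Benjamini-Hochberg over 13769 genes, threshold 0.05). The SE is the log2 fold change divided by the square root of F. The fit was tested on counts simulated with planted changes and with the spread estimated from these libraries. Such counts hold no shift of a whole library and no pairing. Alternatives included DESeq2 1.42.0 and limma 3.58.1 (voom). Depths of 17374151 to 22738745 counts limit precision for genes near 1 CPM. Replicates of a group differed by more than sampling noise (chi-square per degree of freedom 5.20 to 17.9).

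The genes and lists were chosen with earlier results of these data known. Genes named by rule are the 10 genes, the called genes of each list and its 2 smallest p, the 5 most like Mt1 and Mt2, and all genes near the metallothionein pair. Others were named after their values were seen. They are Hmox1, Slc31a1, Slc30a8, Cox17, Sod1, Nr3c1, Osmr and single cell type markers. A marker list is not reported here.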

Additional observations from a re-analysis of the deposited data

How the results depend on the processing

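The log2 fold changes of the 10 genes moved by less than 1 within-group SD of log2 CPM (0.0374 for Slc39a7 to 0.182 for Slc30a7) under all 15 alternatives, although leaving out 1 library moved those of Mt1, Slc30a7, Slc39a10 and Slc39a14 by more than the SE of the estimate. They ranged from 0.76 to 0.93 for Mt1 and from 0.84 to 0.97 for Mt2, and those of Mtf1 (-0.18 to -0.04), Slc30a1 (0.11 to 0.25) and Slc39a10 (-0.28 to -0.05) kept their sign, while those of Slc30a5, Slc30a7, Slc39a1, Slc39a7 and Slc39a14 turned under at least 1. The count of genes called higher, 3 in the fit reported, was 6 with no filter beyond a total count of 1, 5 with DESeq2 and 0 to 4 when leaving out single libraries. The count among the 10 genes was 0 to 2 in those fits, 0 only without BSA replicate 2, where adjusted p was 0.152 for Mt1 and 0.141 for Mt2, against 3.21e-12 to 0.271 for Mt1 and 2.10e-12 to 0.271 for Mt2 over all 15 alternatives. With the replicate block, 0 genes and 0 of the 10 were called. Deviations of same-numbered libraries correlated at 0.47, -0.26 and -0.30, and not every library correlated best with its own number. With 3 libraries per group, these correlations cannot decide whether the numbers mark a shared animal or culture. No gene was called lower under any setting (306 with rhMG53 lower at an unadjusted p under 0.05 in edgeR, 156 in DESeq2 and 312 in limma voom), and the 5 lists held 0 called genes under all 15 alternatives. The causes were not tested.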
